A study of Mus musculus with 9 samples.

Results

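Hexose transporters of the gut epithelium are membrane proteins that carry glucose, galactose, fructose and related sugars or polyols into and out of the absorptive cell. They were taken here as 9 genes fixed by name, Slc2a1, Slc2a2, Slc2a5, Slc2a7, Slc5a1, Slc5a4a, Slc5a4b, Slc5a9 and Slc5a11, with every probe set annotated to exactly 1 of these symbols. A probe set is the group of array features that together report 1 transcript. Of the 9 genes, 8 were represented, by 14 probe sets, and Slc2a7 had no probe set of its own under this annotation and was not analysed here. All 14 probe sets passed the filter on dim signals, and the 8 genes stand among 13830 genes tested.

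RNA was measured on 9 Affymetrix mouse arrays, 1 per adult male mouse aged 6 to 8 weeks, in jejunum of Gata4 mutant mice (n = 3), ileum of control mice (n = 3) and jejunum of control mice (n = 3). Mutants carried the genotype Gata4loxP/-VilCre, in which 1 copy of Gata4 was flanked by loxP sites and the other was null; Gata4 encodes a DNA-binding protein of the GATA family that is active in the upper small intestine. Controls, for ileum and jejunum alike, were Gata4loxP/+VilCre, with 1 loxP-flanked and 1 wild-type copy. Every mouse thus carried the villin-Cre transgene, which acts in the intestinal epithelium, and the loxP-flanked copy was exposed to Cre in controls as well. Jejunum was taken 10 cm beyond the pylorus and ileum 1 cm before the cecum, and ileal and jejunal controls were different mice. In such tissue samples, fewer cells of a type and less RNA per cell cannot be told apart.

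Sugar uptake runs across both faces of the absorptive cell. On the brush border, the sodium-glucose cotransporter encoded by Slc5a1 takes up glucose and galactose against their gradient, and the facilitator encoded by Slc2a5 takes up fructose. On the basolateral face, the facilitator encoded by Slc2a2 lets all of these sugars leave towards the blood, and the sodium pump keeps up the gradient that drives uptake. In textbook physiology the proximal small intestine absorbs most dietary sugar.

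Levels below are quantile-normalized log2(intensity + 16) values, so that a signal of 0 would read about 4, and differences are on this log2 scale too. Each gene is represented by its brightest tested probe set, a call is an adjusted p under 0.05 in the limma model of all 29307 probe sets tested, and ± gives the SD with n = 3 per group. Folds are on the log2(intensity + 16) scale, on which folds of dim signals come out too small. Before normalization the trimmed mean intensity was 170 ± 18.3 in mutant jejunum, 113 ± 13.3 in control ileum and 164 ± 12.1 in control jejunum, so the ileum arrays were dimmer. The hybridization control probe sets were dimmer there too. Those named CreX are among them and may also report the Cre transgene, so their mean is not free of tissue RNA. They averaged 1637 to 2120 on the ileum arrays and 2786 to 3365 on the jejunum arrays. Array brightness and segment go together in these 9 arrays, so their parts in a difference cannot be separated. The cause of the dimness was not tested. Mutant jejunum 3 lay apart from the other mutant arrays on the second principal component (-55.8, against 12.0 and 7.06) and took the lowest array weight, 0.384. Gata4 itself, on the brighter of its probe sets, stood at 9.61, 9.51 and 9.38 in mutant jejunum, at 5.64, 5.30 and 5.20 in control ileum and at 9.57, 9.49 and 9.52 in control jejunum. The mutant and control jejunum arrays overlapped for Gata4 (-0.02 on the log2 scale, adjusted p = 0.959). The dimmer Gata4 probe set read 8.47, 8.29 and 7.91 in mutant jejunum, 4.90, 4.59 and 4.26 in ileum and 8.07, 7.30 and 7.34 in control jejunum. It too did not pass the test in the mutant (0.65, adjusted p = 0.195). The position of these probe sets relative to the deleted part of the gene is not given, and the values therefore check nothing about the deletion.

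In the mutant, Slc5a4a and Slc5a11 fell and stood close to their ileal levels, Slc2a5 fell and stayed above its ileal level, and Slc2a2 and Slc5a4b did not pass the test against control jejunum and stayed far above ileum. Differences in response between the genes were not tested. In mutant against control jejunum, 3 of the 8 genes were lower, none was higher and 5 were not called, or 4 of 14 probe sets, where 3.56% of all probe sets tested were called, 1.82% lower and 1.74% higher. The 4 probe sets became 2 without any 1 of mutant jejunum 2 or 3, control ileum 2 or control jejunum 1, 2 or 3, and 6 without mutant jejunum 1; they were also 2 with no scaling, median centring, no filter or no intensity trend. At an unadjusted p under 0.05, 6 genes were lower and 1, Slc2a1, was higher. No share of all probe sets at this threshold is given here, for these or for later unadjusted counts. In control ileum against control jejunum, 6 genes were lower, 1 was higher and 1 was not called, or 8 and 3 of 14 probe sets, where 16.2% of all were called, 7.86% lower and 8.36% higher. In mutant jejunum against control ileum, 3 genes were higher, none was lower and 5 were not called. Of the 14 probe sets 3 were higher and none was lower, where 2.65% of all probe sets were called, 1.39% higher and 1.27% lower. At an unadjusted p under 0.05 no gene was lower there, on its brightest probe set, though 2 of the 14 probe sets were, both of Slc2a1. The median difference of the 8 genes was -0.84 in mutant against control jejunum, -2.34 in ileum against control jejunum and 0.47 in mutant jejunum against ileum. Over all probe sets tested the same medians were 0.00, 0.01 and -0.01; with no scaling between arrays they were 0.00, -0.40 and 0.41, so unscaled differences that involve ileum are shifted by about that much. These comparisons share arrays, so each gene's 3 differences are given side by side and not correlated.

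**Figure D1:**
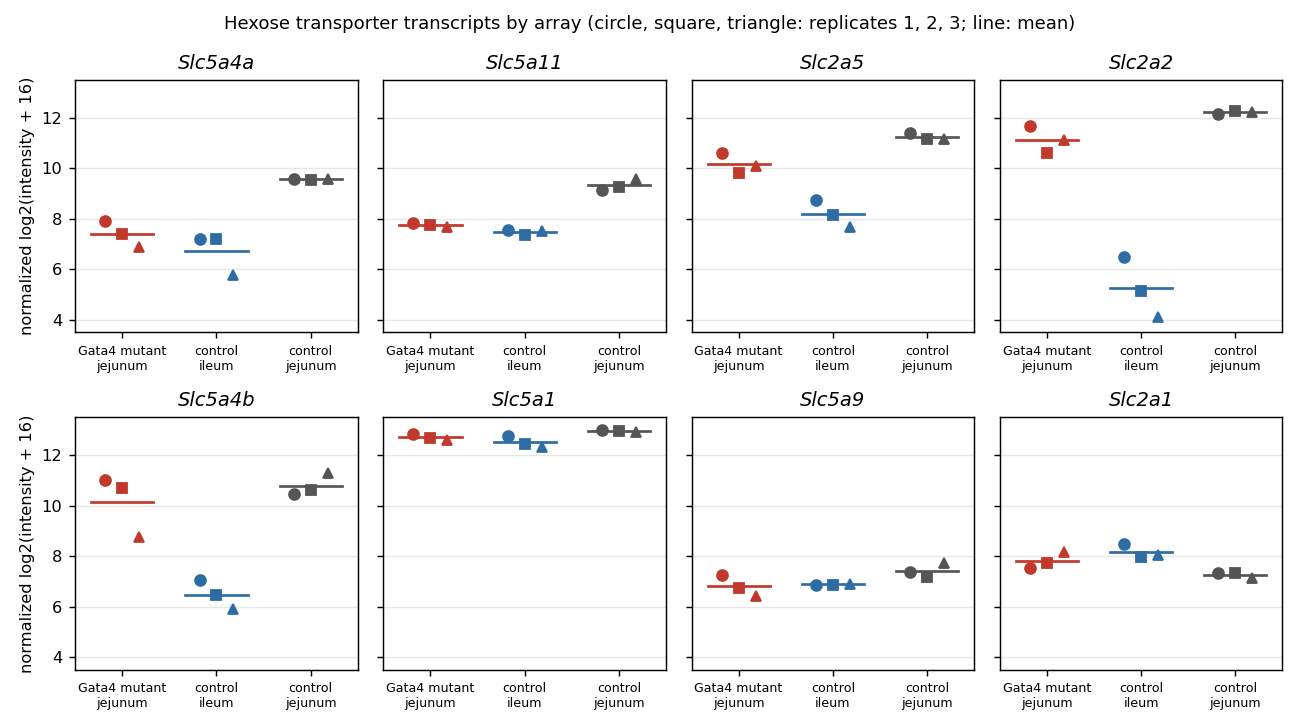
Normalized log2(intensity + 16) of the brightest probe set of each of the 8 hexose transporter genes, 1 point per array, with circles, squares and triangles for replicates 1, 2 and 3 and a line at the group mean (n = 3 per group). For Slc5a4a and Slc5a11 the mutant jejunum points lie beside those of ileum, and for Slc2a2 they lie between 10.62 and 11.66, above all ileum points and below all control jejunum points.

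Slc5a4a and Slc5a4b are neighbouring genes on chromosome 10, with no other protein-coding gene between them in the RefSeq annotation. Their proteins belong to the sodium-glucose cotransporter family, and the human relative has been described as a glucose sensor. They are shown with the bases around their start sites because they are adjacent paralogs, of which Slc5a4a was called lower in the mutant and Slc5a4b was not. Each run gives 250 bases before and 30 bases from the annotated start site, from RefSeq, build GRCm38.p6, 5′ to 3′ on the gene's own strand. The Slc5a4a run is chr10:76147201-76147480 on the plus strand and the Slc5a4b run is chr10:76110989-76111268 on the minus strand. Capitals mark TTTAT, the searched CDX motif, in each gene, and in Slc5a4a also ATTAAC, which is GTTAAT, the searched HNF1 motif, on the other strand.
Slc5a4a: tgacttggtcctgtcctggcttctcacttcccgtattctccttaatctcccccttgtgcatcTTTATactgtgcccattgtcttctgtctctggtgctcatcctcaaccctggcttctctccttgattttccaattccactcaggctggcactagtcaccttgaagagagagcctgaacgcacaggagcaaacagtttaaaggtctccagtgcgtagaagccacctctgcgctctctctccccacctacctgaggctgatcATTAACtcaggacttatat
Slc5a4b: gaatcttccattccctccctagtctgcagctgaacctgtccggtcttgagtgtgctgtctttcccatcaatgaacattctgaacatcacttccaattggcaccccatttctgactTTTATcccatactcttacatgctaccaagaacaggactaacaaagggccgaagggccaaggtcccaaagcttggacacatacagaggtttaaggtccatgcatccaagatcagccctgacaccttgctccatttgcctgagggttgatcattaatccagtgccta

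The motifs searched were AGATAA and TGATAA for GATA factors, GTTAAT for HNF1 and TTTAT for CDX factors, on both strands and over 250 bases before to 50 after the start site. Of the 9 genes, 8 have a window in the RefSeq table. TTTAT occurs 188 bases before the start of Slc5a4a and 135 bases before that of Slc5a4b, whose window also holds it on the other strand, as ATAAA at base 32 of the transcript, and 13143 of all 32851 windows hold it on either strand. ATTAAC begins at base 12 of the Slc5a4a transcript, and 7.10% of windows hold it. The longest run shared by the neighbouring genes is TGATCATTAA, of 10 bases, which begins at base 7 of the Slc5a4a and at base 10 of the Slc5a4b transcript, and in Slc5a4a it overlaps ATTAAC. Neither window holds either GATA motif, which says only that these letters are not in these windows.

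Slc5a4a stood at 7.91, 7.39 and 6.86 in mutant jejunum, at 7.21, 7.19 and 5.78 in control ileum and at 9.58, 9.55 and 9.57 in control jejunum. The control jejunum arrays lay close together and above every other array, while mutant jejunum and ileum overlapped. In deposited intensity, Slc5a4a read 270, 180 and 105 in mutant jejunum, 88.2, 112 and 32.6 in ileum and 871, 742 and 877 in control jejunum. It fell 4.53-fold in mutant against control jejunum (log2 difference -2.18, SE 0.35, adjusted p = 0.00708) and was lower in ileum than in control jejunum by 7.15-fold (log2 difference -2.84, adjusted p = 0.000412). Mutant jejunum and ileum were not called different for Slc5a4a, with a log2 difference of 0.66 and a 95% interval from -0.12 to 1.44 (adjusted p = 0.400). Among the 13830 genes, the fall of Slc5a4a in the mutant ranked 35th from the lowest.

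Slc5a4b stood at 11.02, 10.69 and 8.76 in mutant jejunum, at 7.03, 6.45 and 5.90 in control ileum and at 10.45, 10.62 and 11.28 in control jejunum. Mutant jejunum 1 and 2 lay within the range of control jejunum, and mutant jejunum 3 lay below it. The difference between mutant and control jejunum was -0.63, with an interval from -1.73 to 0.48 (adjusted p = 0.582), and without mutant jejunum 3 it was 0.07 (adjusted p = 0.937). Against ileum, Slc5a4b was 13.0-fold higher in mutant jejunum (log2 difference 3.70, adjusted p = 0.00458), and every mutant array lay above every ileum array; without mutant jejunum 3 the log2 difference was 4.40. Between control segments it was 20.0-fold lower in ileum (log2 difference -4.32, adjusted p = 0.000253). Whether the response of Slc5a4b differs from that of Slc5a4a was not tested, nor was cross-hybridization between these paralogs.

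Slc5a11 encodes a sodium-coupled transporter of myo-inositol that also carries glucose. It read 7.84, 7.73 and 7.69 in mutant jejunum, 7.55, 7.34 and 7.53 in control ileum and 9.14, 9.25 and 9.57 in control jejunum. The mutant arrays lay just above the ileum arrays, without overlap, and both groups lay far below control jejunum. Slc5a11 fell 2.96-fold in mutant against control jejunum (log2 difference -1.57, SE 0.14, adjusted p = 0.000158), and ileum was 3.60-fold lower than control jejunum (log2 difference -1.85, adjusted p = 1.41e-05). The difference of 0.28 between mutant jejunum and ileum was not called (95% interval from -0.03 to 0.59, adjusted p = 0.362). Slc5a4a and Slc5a11 kept their calls against control jejunum in each of 21 alternatives, with adjusted p of at most 0.0372 and 0.00151. With no scaling between arrays, both were called higher in mutant jejunum than in ileum, by 1.13 (adjusted p = 0.0267) and 0.77 (adjusted p = 0.0135).

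Slc2a5, the fructose facilitator of the brush border, was called in all 3 comparisons. It stood at 10.58, 9.83 and 10.09 in mutant jejunum, at 8.74, 8.14 and 7.69 in control ileum and at 11.37, 11.14 and 11.14 in control jejunum. The groups did not overlap, and the mutant lay between the control segments. It fell 2.07-fold in mutant against control jejunum (log2 difference -1.05, SE 0.25, adjusted p = 0.0446) and was 3.95-fold higher in mutant jejunum than in ileum (log2 difference 1.98, adjusted p = 0.00310). Ileum was 8.18-fold lower than control jejunum (log2 difference -3.03, adjusted p = 2.26e-05). The call against control jejunum lay close to the threshold. Leaving out mutant jejunum 2 or 3 ended it (adjusted p of 0.158 and of 0.0982), as did leaving out control ileum 2 (0.0710) or any of control jejunum 1, 2 and 3 (0.111, 0.126 and 0.126), and it was also lost in 5 of 12 other settings. The log2 difference of Slc2a5 ran from -1.26 to -0.88 over the 21 alternatives.

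Slc2a2, the basolateral facilitator through which sugars leave the enterocyte, showed the widest gap between the segments among the 8 genes. It stood at 11.66, 10.62 and 11.10 in mutant jejunum, at 6.48, 5.13 and 4.12 in control ileum and at 12.15, 12.25 and 12.21 in control jejunum. In deposited intensity these were 4071, 1993 and 2168 in mutant jejunum, 48.7, 15.8 and 1.09 in ileum and 5214, 4767 and 5605 in control jejunum. The ileum arrays read low, down to about the lowest value of the scale, while the mutant arrays lay below all control jejunum arrays but far above ileum.

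Because 1 of the 3 ileum arrays lay under the filter level of 4.95, that level was used as a floor for the folds of Slc2a2 against ileum. Each ileum array was set to the higher of its own value and the floor. These folds do not allow for the spread between arrays or for the pseudocount, so the true fold may be smaller or larger. With the floor, Slc2a2 was 48.6-fold higher in mutant jejunum than in ileum (fitted log2 difference 5.88, 95% interval from 4.87 to 6.89, adjusted p = 0.000124). The fitted difference depends on the pseudocount, at 7.20 for 1 and 4.65 for 64, and was 6.55 without control ileum 1. It was the highest of the 13830 genes as fitted, a place that holds for fitted values only. Between control segments Slc2a2 was 103-fold lower in ileum with the floor (fitted log2 difference -6.96, 95% interval from -7.98 to -5.95, adjusted p = 6.14e-06). The fitted difference was -8.29 and -5.72 with these pseudocounts and -7.62 without control ileum 1. Against control jejunum, mutant Slc2a2 was not called (log2 difference -1.08, 95% interval from -2.10 to -0.07, adjusted p = 0.264), though a fit of these groups alone called it (adjusted p = 0.0395). The SD of Slc2a2 was 0.52 in mutant jejunum, 1.19 in ileum and 0.05 in control jejunum, and the 3 groups share 1 estimate of the spread in the model.

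The sequence upstream of Slc2a2 is printed because it is the only measured member with a searched GATA motif in its window, among those with a window. The run is chr3:28697653-28697932, plus strand, from the same RefSeq table. Capitals mark TTATCA, which is TGATAA on the other strand, 156 bases before the start site.
Slc2a2: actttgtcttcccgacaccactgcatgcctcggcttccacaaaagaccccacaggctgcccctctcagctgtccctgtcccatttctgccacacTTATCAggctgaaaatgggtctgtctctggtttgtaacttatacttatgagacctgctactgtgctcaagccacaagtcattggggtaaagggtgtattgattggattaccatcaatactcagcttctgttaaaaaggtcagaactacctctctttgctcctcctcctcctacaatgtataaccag

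TGATAA occurs on either strand in 9.05% of the 32851 windows, and AGATAA or TGATAA in 18.6%. Slc2a7, which was not measured, holds TTATCA 91 bases before its start. The windows of Slc2a1, Slc2a5, Slc5a1, Slc5a4a, Slc5a4b and Slc5a11 hold neither GATA motif, and Slc5a9 has no window in the table. No binding was measured in these samples.

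**Figure D2:**
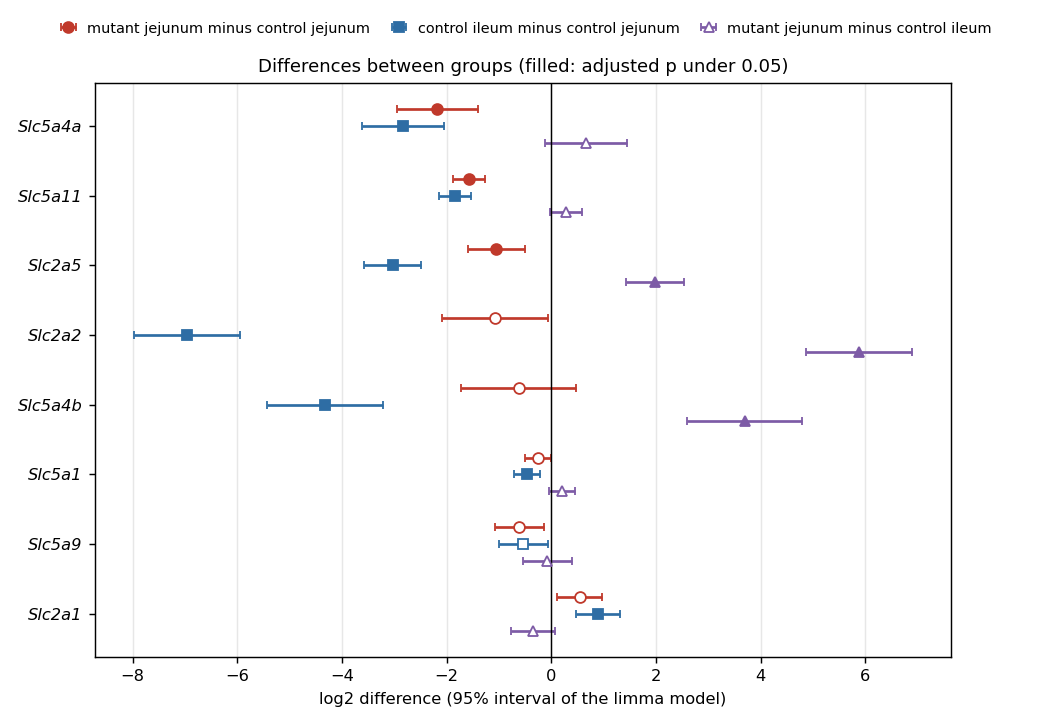
Log2 differences of the 8 genes in the 3 comparisons, with 95% intervals from the limma model, filled where the adjusted p is under 0.05. Slc2a2 and Slc5a4b have open symbols for mutant against control jejunum (-1.08 and -0.63) and filled ones for mutant jejunum against ileum (5.88 and 3.70), and Slc5a4a and Slc5a11 show the reverse.

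Slc5a1, the sodium-glucose cotransporter of the brush border, spanned less than any other of the 8 genes between its highest and lowest group means. It stood at 12.83, 12.68 and 12.58 in mutant jejunum, at 12.74, 12.43 and 12.31 in control ileum and at 13.00, 12.96 and 12.91 in control jejunum. Mutant jejunum overlapped ileum and lay just below control jejunum. Between control segments Slc5a1 was 1.38-fold lower in ileum (log2 difference -0.46, adjusted p = 0.0178), and its other probe set was 1.54-fold lower (log2 difference -0.62, adjusted p = 0.00705). For the brighter probe set, leaving out control ileum 2 or 3 (adjusted p of 0.0650 and of 0.0651) or control jejunum 1 or 2 (0.0559 and 0.0597) ended the call, as did trimmed mean scaling (0.0598) and a fit with no intensity trend (0.0576). The other probe set kept its call in each of 20 alternatives. In mutant against control jejunum neither was called, with differences of -0.26 and -0.33 and 95% intervals from -0.50 to -0.01 and from -0.60 to -0.05 (adjusted p = 0.277 and 0.215).

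Slc5a9, a sodium-coupled transporter of mannose and other hexoses, had 4 probe sets. The brightest stood at 7.25, 6.73 and 6.41 in mutant jejunum, at 6.87, 6.85 and 6.90 in control ileum and at 7.35, 7.16 and 7.73 in control jejunum, with mutant jejunum overlapping both. All 4 probe sets had lower means in mutant than in control jejunum, by -0.62, -0.69, -0.61 and -0.54, and 1 of the 4 was called (log2 difference -0.69, adjusted p = 0.0423). The same probe set was lower in ileum (log2 difference -0.56, adjusted p = 0.0375), and the other 3 were not called in either comparison. Its call in the mutant was lost in 13 of 20 alternatives. These included leaving out mutant jejunum 2 or 3 (adjusted p of 0.137 and of 0.0960), control ileum 2 or 3 (0.0570 and 0.0560) or any array of control jejunum (0.0711 to 0.162). Its call in ileum was lost in 7 of 20 alternatives, of which 6 left out mutant jejunum 2, control ileum 2 or 3 or any array of control jejunum (adjusted p from 0.0523 to 0.127).

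Slc2a1, the facilitator that serves basal glucose uptake in most cell types and is abundant in red cells and in barrier endothelium, ran the other way. Its brightest probe set stood at 7.53, 7.73 and 8.15 in mutant jejunum, at 8.50, 7.95 and 8.02 in control ileum and at 7.35, 7.31 and 7.13 in control jejunum. Every mutant and every ileum array lay above every control jejunum array on this probe set, and on each of the other 2. Ileum was higher than control jejunum by 0.89, 1.09 and 0.83 on the log2 scale over the 3 probe sets (adjusted p = 0.00979, 0.00209 and 0.00356). With no scaling between arrays the differences of the brightest and the dimmest were 0.41 and 0.38 and were not called (adjusted p = 0.0819 and 0.113). The differences between mutant and control jejunum were 0.54, 0.59 and 0.36, with none called (adjusted p = 0.176, 0.105 and 0.237), and those between mutant jejunum and ileum were -0.35, -0.50 and -0.46, with none called (adjusted p = 0.405, 0.186 and 0.134); with no scaling the brightest turned to 0.15.

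Markers of other tissue components were set beside these results as summed normalized levels over each list. The sums are on the linear scale, so the brightest genes of a list weigh most and a sum need not reflect the whole list. For the epithelium, 10 of 10 listed markers were tested, and the sum was 54300 to 59200 in mutant jejunum, 59600 to 62300 in ileum and 50200 to 52100 in control jejunum. Of the 10, the keratins Krt18 and Krt19 rose in the mutant, 6 were higher in ileum than in control jejunum, and limma called none lower in either, also at an unadjusted p under 0.05. Vil1 (-0.11 in the mutant, -0.06 in ileum) and Krt20 (-0.15 in ileum) had lower means. The part of epithelial share in the transporter differences was not tested. Smooth muscle markers summed to 7020 to 10600 in mutant jejunum, 16400 to 20200 in ileum and 8650 to 12600 in control jejunum, and 7 of 8 were higher in ileum than in control jejunum; 3 of 6 genes of enteric neurons and glia and 1 of 6 of fibroblasts were higher there too, and 2 of 4 of T cells, 2 of 5 of B and plasma cells and 1 of 5 of macrophages were lower. Over all probe sets tested, 8.36% were higher and 7.86% lower in ileum than in control jejunum, so 1 call in a list of 5 or 6 genes says little. The part of these components in the ileal differences was not tested. Endothelial markers, which bear on Slc2a1, summed to 281 to 556 in mutant jejunum, 226 to 254 in ileum and 371 to 451 in control jejunum, with 2 of 7 lower in ileum and none higher. Of the red cell list only Alas2 and Slc4a1 of 6 genes were tested, with sums of 27.5 to 46.9 in mutant jejunum, 16.6 to 35.4 in ileum and 24.8 to 47.1 in control jejunum. The lists beside epithelium were smooth muscle, enteric neurons and glia, endothelium, red cells, fibroblasts, T cells, B and plasma cells, macrophages, pancreatic acinar cells, and crypt stem and cycling cells. Of their 51 genes tested, limma called 0 in mutant against control jejunum, and 4 had an unadjusted p under 0.05. Over all probe sets tested 3.56% were called in that comparison, a share at which few calls would fall among 51 genes. Mutant jejunum 3, the array with the lowest Slc5a4b and Slc5a4a of its group, had the highest endothelial sum (556, against 319 and 281) and fibroblast sum (5790, against 3560 and 3720) of the mutant arrays. Its sums were also the highest for macrophages (5450, against 2970 and 3500), crypt stem and cycling cells (6060, against 4090 and 4260), T cells, and B and plasma cells. In the B and plasma cell sum, Jchain (13.12 in this array) was by far the brightest gene. They were the lowest for epithelium (54300, against 59100 and 59200), smooth muscle (7020, against 8580 and 10600), red cells and pancreatic acinar cells. The part of these components in its Slc5a4b level was not tested.

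Other genes of sugar handling were read from lists by role. Over all probe sets tested, 3.56% were called in mutant against control jejunum. In ileum against control jejunum 16.2% were called, and in mutant jejunum against ileum 2.65%. The brush border disaccharidases split lactose, starch products and trehalose into the hexoses that these transporters carry. Of 3 tested (Sis had no probe set of its own under this annotation), 2 fell in the mutant, Lct, the lactase (-4.11), and Treh, the trehalase (-1.59), and all 3 were lower in ileum than in control jejunum (Treh -3.49, and Mgam, the maltase-glucoamylase, -1.11). All 3 were higher in mutant jejunum than in ileum (Treh 1.90 and Mgam 0.98). For Lct, 2 of 3 ileum arrays lay under the filter level. With the floor used for Slc2a2, and the same limits, it was 14.4-fold higher in mutant jejunum than in ileum (adjusted p = 0.00381 for the fitted difference). It was 248-fold lower in ileum than in control jejunum (adjusted p = 5.48e-06 for the fitted difference). Among the 4 genes of glucose output, Slc37a4, which carries glucose 6-phosphate into the endoplasmic reticulum, fell in the mutant (-0.98, adjusted p = 0.0257), and G6pc, the glucose 6-phosphatase (0.06), and Fbp1, the fructose bisphosphatase (-0.01), did not pass the test. These 3 genes were lower in ileum than in control jejunum (Slc37a4 with adjusted p = 0.000105, G6pc by -3.10 and Fbp1 by -2.87) and higher in mutant jejunum than in ileum (1.02, 3.16 and 2.86).

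Of 8 tested genes that phosphorylate hexoses or metabolise fructose and galactose, 1 fell in the mutant and none rose. It was Khk, the ketohexokinase that phosphorylates fructose (-0.83, adjusted p = 0.0199), which was also lower in ileum (-2.08) and higher in mutant jejunum than in ileum (1.24). Tkfc, the triokinase of the same pathway, was lower in ileum (-1.60) and higher in mutant jejunum than in ileum (0.94), and its difference between mutant and control jejunum was -0.66 (adjusted p = 0.0900). In ileum, Galm, the galactose mutarotase, was lower than in control jejunum (-0.97) and Hk2, a hexokinase, was higher (1.48). Of 9 tested genes of sugar sensing and transporter regulation, Pdzk1ip1, a small membrane protein known to activate a renal sodium-glucose cotransporter, rose in the mutant (0.82, adjusted p = 0.0386). Pdzk1ip1 was also higher in ileum than in control jejunum (0.97), as was Rab11a (0.43), a regulator of membrane recycling. Mlxipl, the carbohydrate-responsive transcription factor, was lower in ileum (-1.46) and higher in mutant jejunum than in ileum (0.89). Of 4 tested genes of the sodium pump and its FXYD partners, none was called by limma in the mutant against control jejunum (1 was higher at an unadjusted p under 0.05), and Fxyd3 was higher in ileum (1.09).

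In the rest of the transporter families, 1 of 7 other Slc2 genes tested was higher in mutant than in control jejunum and none was lower. Of 7 other Slc5 genes tested, 2 were higher and 1 was lower, where 3.56% of all probe sets tested were called. Of 7 other Slc2 genes tested, Slc2a13, a proton-coupled myo-inositol transporter, rose in the mutant (0.94, adjusted p = 0.0329) and was higher in ileum than in control jejunum (1.73), opposite in sign to Slc5a11, the sodium-coupled myo-inositol transporter. Slc2a4, the insulin-responsive facilitator of muscle and fat, was higher in ileum (0.73). Of 7 other Slc5 genes, 2 monocarboxylate transporters moved in opposite directions in the mutant: Slc5a12 fell by 3.37 (adjusted p = 0.000327) and Slc5a8 rose by 1.80 (adjusted p = 0.000437). Both differed between control segments by similar amounts (-3.41 and 1.99), and Slc5a6, the vitamin transporter, rose in the mutant (0.90, adjusted p = 0.0451). The median difference in mutant against control jejunum was -0.02 over the Slc2 list and 0.01 over the Slc5 list.

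**Figure D3:**
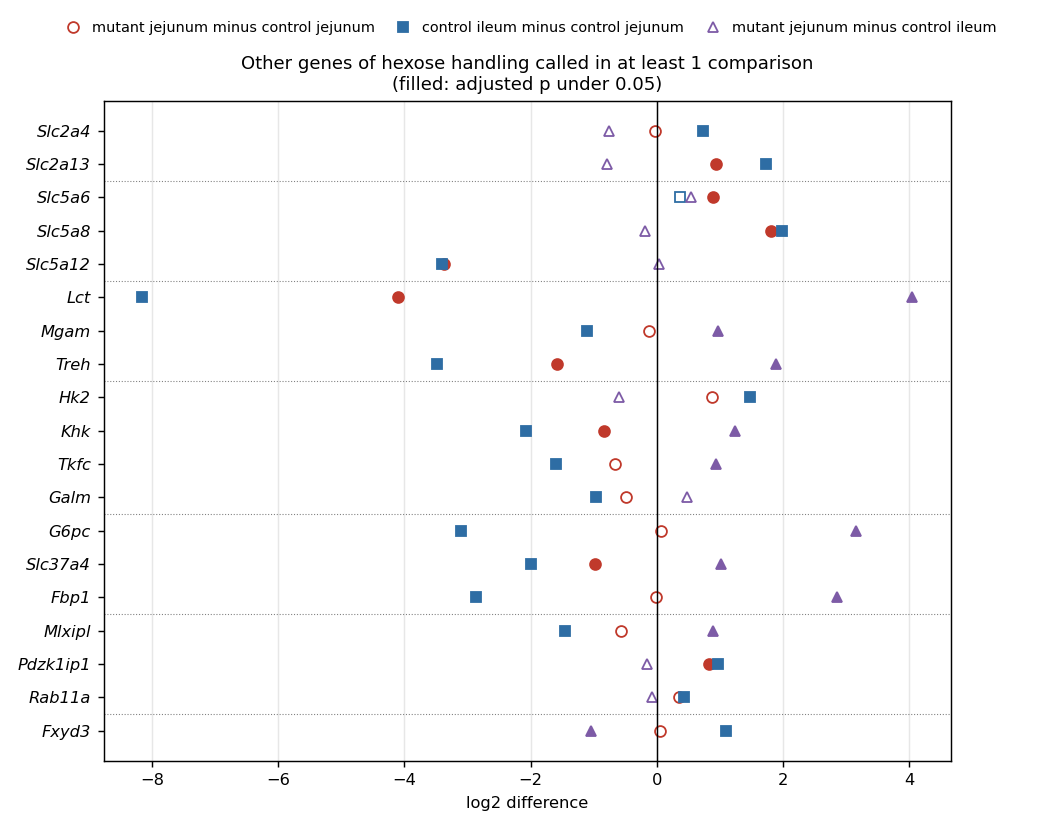
Log2 differences of the 19 other genes of hexose handling and of the transporter families called in at least 1 comparison, grouped by list between dotted lines and filled where the adjusted p is under 0.05. G6pc and Fbp1 lie near 0 for mutant against control jejunum and above 2 for mutant jejunum against ileum, and Slc5a12 and Slc5a8 lie near 0 for mutant jejunum against ileum.

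The genes whose standing probe sets ran most alike with each called transporter were listed by Pearson's r over the 9 arrays, which fall into the 3 groups and share their arrays with the comparisons above. For Slc2a2 these were Onecut2, a transcription factor of the proximal gut (r = 0.988), Slc35g1 (r = 0.985) and Cyp2c68 (r = 0.983). Onecut2 stood at 8.24 ± 0.20 in mutant jejunum, 4.25 ± 0.32 in ileum and 8.67 ± 0.31 in control jejunum. For Slc5a4b they were Srr, the serine racemase (r = 0.993), the glutathione transferase Gsta2 (r = 0.989) and Apob, the chylomicron apolipoprotein (r = 0.986). For Slc5a11 they were Slc23a1, the vitamin C transporter (r = 0.995), Slc3a2, the shared chain of amino acid exchangers (r = 0.991), and Nat8f4 (r = 0.988). Slc23a1 stood at 5.91 ± 0.27 in mutant jejunum, 5.28 ± 0.14 in ileum and 8.56 ± 0.27 in control jejunum.

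For Slc5a4a the genes most alike were Vav2 (r = 0.987), Phyh, a peroxisomal hydroxylase (r = 0.985), and the glutathione transferase Gstm7 (r = 0.984). Slc2a5 ran most alike with 1810055G02Rik (r = 0.989), the butyrylcholinesterase gene Bche (r = 0.986) and Acsl5, an acyl-CoA synthetase (r = 0.984). Slc5a1 ran most alike with Pbld2 (r = 0.989), Sucla2 (r = 0.981) and Arl14 (r = 0.973), and Slc2a1 with Hs3st1, Unc13b and D6Wsu163e (r = 0.964, 0.964 and 0.963). These values describe likeness over these arrays only.

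**Figure D4:**
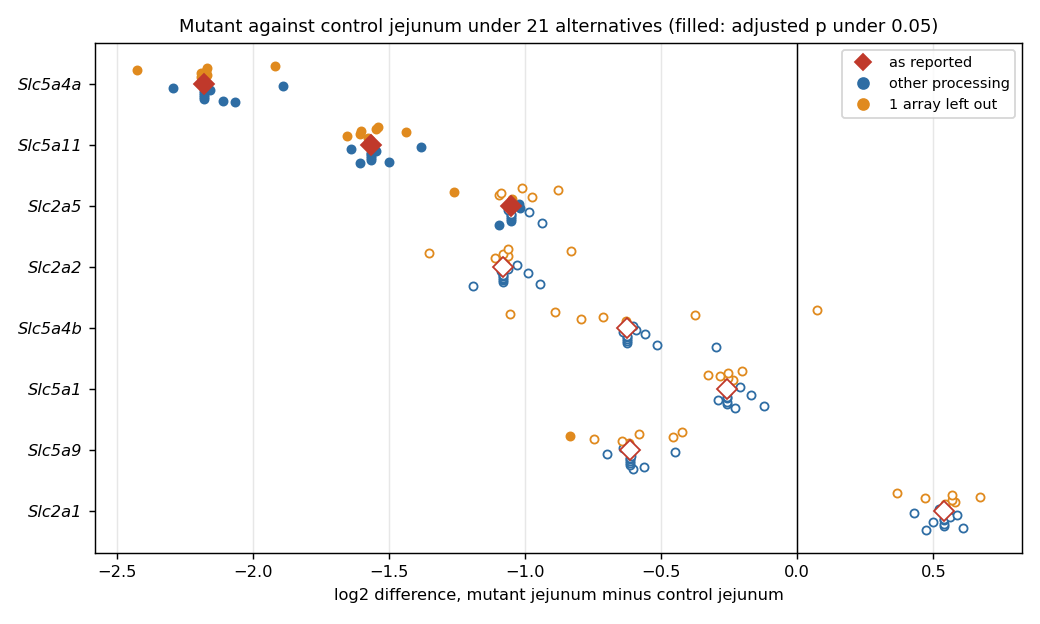
Log2 difference between mutant and control jejunum for each of the 8 genes as reported (diamonds) and under 21 alternatives (circles: other processing, or 1 array left out), filled where the adjusted p is under 0.05. Slc5a4a and Slc5a11 are filled throughout, Slc2a5 is filled in 10 of 21, and Slc5a4b is the 1 gene whose points cross 0, at 0.07 without mutant jejunum 3.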

How the data were processed

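Total RNA, labelled with biotin by the Affymetrix procedure per the labels' protocols, was hybridized to 9 Mouse Genome arrays. The deposited values are linear intensities, 1 for each probe set of an array, made with GCOS per the submitters' processing notes. No version or setting of GCOS is stated, and array means, trimmed by 2% at each end, ran from 97.5 to 181. No detection calls were used here.

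Of 45101 probe sets, 64 were array controls and not used. Log2(intensity + 16) was quantile-normalized, and probe sets above the 40th percentile (4.95) on 3 or more arrays were tested, which kept 29307. Symbols come from the platform annotation, checked through Entrez identifiers against the RefSeq table of GRCm38.p6. Differences were fitted over all 9 arrays in limma 3.58.1 (R 4.3.3), with an intensity trend, two-sided tests and Benjamini-Hochberg adjustment over all probe sets of a comparison. The test was checked on simulated data with independent normal errors. These data had no outlying array and no dimmer segment, so the check does not cover mutant jejunum 3 or the ileum arrays. Quantile normalization removes a change of all transcripts in 1 direction, and the pseudocount narrows differences of dim probe sets. With 3 arrays a group, their number limits the precision.

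Named genes are the 9 members, the called genes of the lists (up to 6 a list by size) and the 3 genes most like each called member. Members, lists, tests and alternatives were chosen with earlier results of these data known. The alternatives were other scalings, pseudocounts of 1 and 64, other filters, no trend, array weights, a fit of 2 groups, the replicate number as a block, means over a gene's probe sets and each array left out.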

Additional observations from a re-analysis of the deposited data

How the results depend on the processing

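Of 864 single differences recomputed over the alternatives, 800 kept their direction and their side of the threshold, 39 lost a call, 14 gained one and 11 changed sign, none of the 11 with a call. The count of hexose transporter probe sets called in mutant against control jejunum, 4 as reported, was 2 with no scaling between arrays, median-centred arrays, no filter or no intensity trend, and 2 to 6 with 1 array left out. In mutant jejunum against control ileum it was 7 with no scaling, against 3 as reported; unscaled ileum arrays are dimmer. The sign changes in that comparison were to 0.15 for Slc2a1 and to 0.38, 0.29, 0.32 and 0.14 for the Slc5a9 probe sets with no scaling, and to 0.065 and 0.013 for 2 Slc5a9 probe sets with arrays centred on their medians. With 1 array left out, 3 Slc5a9 probe sets ran from -0.30 to 0.12, from -0.29 to 0.073 and from -0.55 to 0.14, and Slc5a4b in mutant against control jejunum ran from -1.06 to 0.072. The causes were not tested. Replicate numbers gave no clear pairing of the arrays: deviations of same-numbered arrays correlated from -0.07 to 0.17, and 8 of 18 best matches carried the same number. Each match was chosen among 3 arrays. With so few arrays, these values cannot exclude a weak pairing. With a replicate block the counts were 3, 11 and 3, against 4, 11 and 3. For signals near background, the pseudocount sets the size of a difference, as given for Slc2a2.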
